A study of Mus musculus with 8 samples.

Results

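The 39 genes described here encode the machinery that copies DNA. They were grouped by what their products do: 9 belong to the replicative helicase, 3 to origin licensing, 6 to the polymerases and primase, 6 to the sliding clamp and its loader, 3 to strand maturation, 5 to nucleotide supply, 4 to chromatin and histone supply and 3 to G1/S control. They are 39 of the 20408 genes found in any of the 8 libraries, and their 62838 UMIs (single RNA molecules counted by barcode) were 0.0662% of the 94908667 UMIs in the cells examined.

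The libraries are single-cell RNA sequencing libraries (10x Chromium, counting the 3′ ends of transcripts) of sorted tumour endothelial cells (ECs) from mice with breast tumours, 2 libraries in each of 4 groups. Spontaneous tumours arose in female MMTV-PyMT mice, in which a mammary tumour virus promoter drives the polyoma middle T oncogene mainly in mammary epithelium, and which the methods say were 9 weeks old when treatment began. Implanted tumours grew in the mammary fat pad of adult female mice from dissociated MMTV-PyMT tumour cells that had been expanded for 2 days in culture and mixed with Matrigel, so the oncogene was carried by the tumour cells and not by the host's ECs. Tumours of each kind were injected with PBS or with cGAMP (3′3′-cGAMP), a cyclic dinucleotide that activates the innate immune adaptor STING, and were taken 3 h later, when live CD31+ CD45- cells were sorted. The labels name C57BL/6 as the strain of all libraries and the methods name FVB mice, and age is labelled only as adult. The methods name 2 mice for each group. The labels do not tie a mouse to a library, so the p-values below measure the spread between libraries only.

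A cell entered when it carried at least 1 UMI of Pecam1, the gene of CD31. This kept 7159 of 8204 deposited cells, 601 to 1529 in a library. The 8 other endothelial markers checked, Cdh5 and Kdr among them, were found in every library, with summed levels of 5212 to 6483 CPM (UMIs per 1000000 UMIs, averaged over cells). Implanted cGAMP replicate 1 stood apart in depth, with a median of 3049 UMIs in a Pecam1 cell against 9523 to 14708 in the others, and 580 of its 1529 cells had under 2000. It also held the most epithelial signal (8 of 8 markers, summed 766 CPM against 127 to 383) and immune signal (8 of 8 markers, 174 against 10.8 to 42.7). Summed mural markers (8 of 8 found in every library) were 829 and 682 CPM in the spontaneous cGAMP libraries, 160 and 531 in spontaneous PBS and 111 to 248 in the implanted libraries, and fibroblast markers (6 of 6) ran from 15.0 to 150 CPM. Cells with Cdh5 and no UMI of Ptprc, Epcam, Krt18, Rgs5 or Col1a1, genes of these other cell types, numbered 3811, and the main counts are given in them too. Just 7 cell barcodes occurred in more than 1 library, and no pair of libraries shared more than 3. The treatment check held in both models: Isg15, Ifit3 and Irf7, genes induced by interferon, rose by 3.20 to 5.85 on the log2 scale after cGAMP.

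Replication begins when origins are licensed in G1: ORC, Cdc6 and Cdt1 load the ring of Mcm2 to Mcm7 proteins onto DNA. At the start of S phase Cdc45 and the GINS proteins join the ring to make the active helicase, primase and polymerase alpha lay down primers, and polymerases delta and epsilon extend them on the sliding clamp Pcna. E2F transcription factors and cyclin E-Cdk2 switch much of this machinery on when a cell leaves quiescence, so in a tissue of mostly resting ECs its transcripts mark the cells that are copying their DNA or preparing to.

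Cells later in the cycle were marked by 6 mitotic genes outside the replication list: Mki67, Top2a, Birc5, Ube2c, Cenpf and Cdk1. In all, 337 of the 7159 cells had a UMI of 3 or more of them. They made up 5.60% and 3.16% of cells in the spontaneous PBS libraries (54 and 19 cells) and 1.79% and 1.15% in the spontaneous cGAMP libraries (12 and 8 cells). In implanted tumours they made up 9.60% and 11.2% after PBS (96 and 123 cells) and 1.31% and 0.828% after cGAMP (20 and 5 cells). Every cGAMP library lay below every PBS library. The mean share was 2.97-fold lower after cGAMP in spontaneous tumours (4.38% ± 1.72 against 1.47% ± 0.450, SD, n = 2) and 9.74-fold lower in implanted tumours (10.4% ± 1.14 against 1.07% ± 0.340). Over both models the log2 share was lower by a mean of 2.43 (difference -2.43, two-sided exact permutation test within models, p = 0.0556, the smallest that the 36 arrangements allow). Finding 3 genes in a cell depends on its depth, and the median cell with the mitotic genes held 16966 to 36853 UMIs, against 3004 to 14459 in the remaining cells. After thinning every cell to 2000 UMIs, which leaves out 22 to 102 cells of a library and 580 of implanted cGAMP replicate 1, the shares were 3.13% and 1.08% (spontaneous PBS), 0.309% and 0.468% (spontaneous cGAMP), 4.28% and 6.52% (implanted PBS) and 0.421% and 0.177% (implanted cGAMP). No doublet caller was run, and the part of doublets among the deep cells was not tested.

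The summed level of the 39 replication genes was also lower after cGAMP. It was 673 and 560.7 CPM in the spontaneous PBS libraries and 410.5 and 392.6 CPM in the spontaneous cGAMP libraries. In implanted tumours it was 790.0 and 840.4 CPM after PBS and 478 and 442 CPM after cGAMP. The groups of a model did not overlap. Cells with the mitotic genes, although few, carried 32.2% and 17.6% of this sum in spontaneous PBS and 40.1% and 45.2% in implanted PBS libraries, but 6.09%, 6.27%, 4.12% and 2.88% in the 4 cGAMP libraries. What the remaining cells carried, the grey part of the bars in the plot of summed levels, differed far less between libraries.

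**Figure D1:**
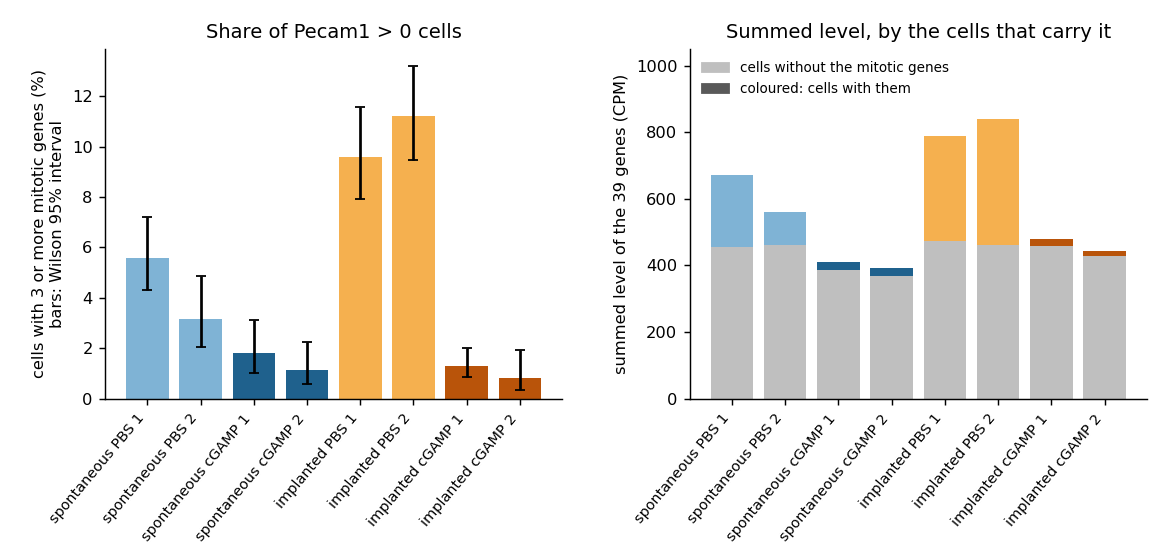
Left, the percentage of Pecam1 > 0 cells with a UMI of 3 or more of 6 mitotic genes in each of the 8 libraries, with Wilson 95% intervals that cover counting error only. Right, the summed level of the 39 replication genes in CPM, divided into what cells with the mitotic genes (coloured) and the remaining cells (grey) carried: the coloured part is 17.6% to 45.2% of the bar after PBS and 2.88% to 6.27% after cGAMP.

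Of the 39 genes, 35 reached 5 CPM in at least 2 libraries and were tested. Gins1, Mcm10, Pole and Ccne1 did not. Library means over Pecam1 cells were compared with limma, and Benjamini-Hochberg adjustment ran over all 10424 genes tested. After cGAMP, 14 of the 35 fell in spontaneous tumours, where 7.59% of all genes tested fell, and 21 of the 35 fell in implanted tumours, where 16.4% did. None rose in either model, where 5.09% and 8.6% of all genes did. The median log2 change was -0.75 in spontaneous and -0.86 in implanted tumours, against -0.10 over all genes in each. Of the called genes, 13 fell in both models, 8 in the implanted fit alone and 1, Slbp, in the spontaneous fit alone. At the level of a library mean, fewer cells copying DNA and less RNA of these genes in each such cell cannot be told apart.

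Both cGAMP libraries lay below both PBS libraries for 31 of the 35 tested genes in spontaneous tumours and for 30 of 35 in implanted tumours, and the background is high: the same held for 41.5% and 41.6% of all genes tested. Of the 35 genes, 10 would not have met the filter on the cGAMP libraries alone (a division made after the values had been seen) and entered with the help of the PBS libraries: Ccne2, Cdc45, Cdc6, E2f1, Rrm2 and Tk1, which reached 5 CPM in no cGAMP library, and Cdt1, Chaf1a, Gins2 and Uhrf1, which reached it in 1. Of the other 25 genes, 10 fell in spontaneous and 15 in implanted tumours. The count in spontaneous tumours depended on single libraries, with 5 genes called without spontaneous PBS replicate 1 or spontaneous cGAMP replicate 2, 7 without spontaneous cGAMP replicate 1 or either implanted PBS library and 9 without spontaneous PBS replicate 2. In implanted tumours 12 and 10 were called without implanted PBS replicate 1 and 2, and 22 without the shallow implanted cGAMP replicate 1. In the 3811 cells with Cdh5 and no marker of another type the counts were 7 and 15. With all cells thinned to 2000 UMIs they were 6 and 10, and with UMIs summed per library they were 31 in each model.

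**Figure D2:**
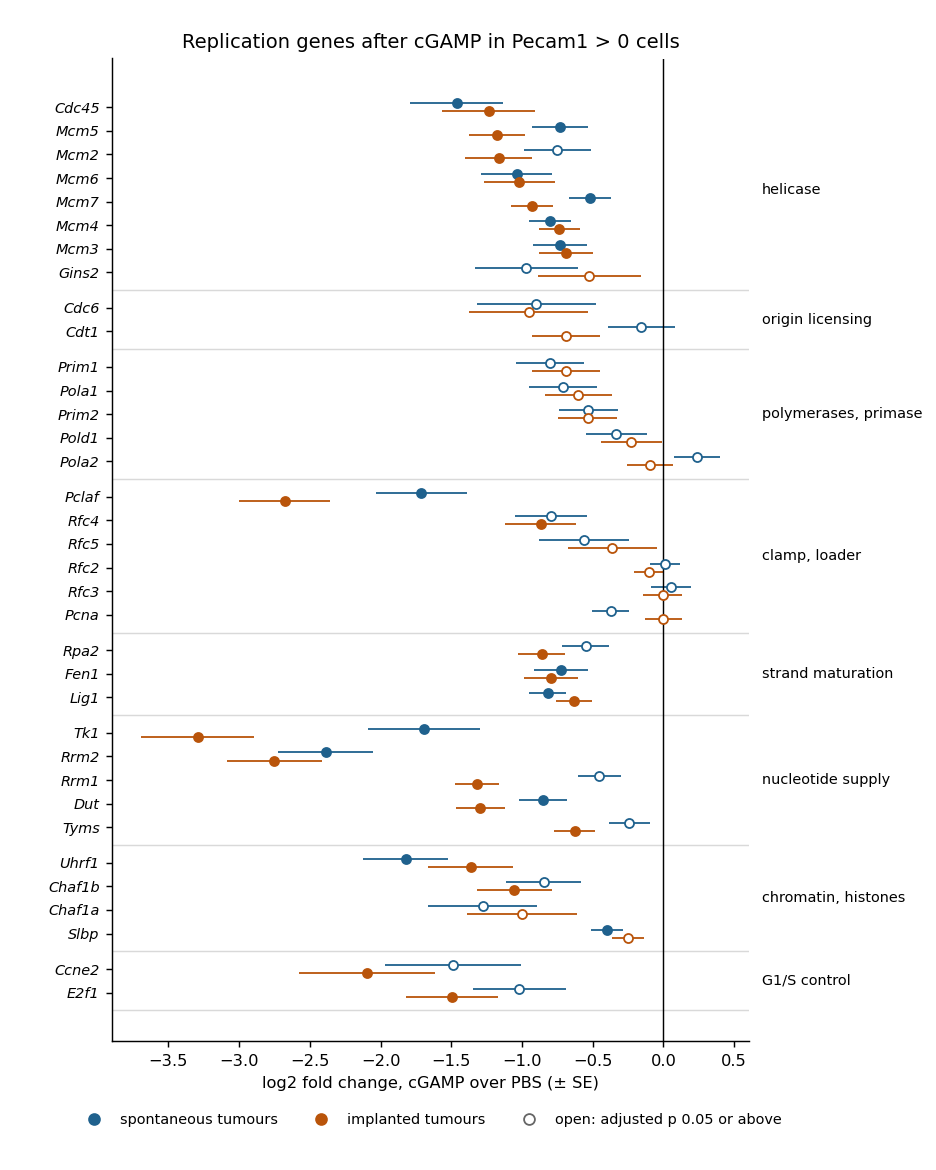
Log2 fold change after cGAMP (± SE, limma) of the 35 tested replication genes in spontaneous (blue) and implanted (orange) tumours, grouped by role, with filled points for adjusted p under 0.05. Most points lie left of 0, from -2.39 to 0.24 in spontaneous and from -3.29 to -0.00 in implanted tumours.

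Of 8 helicase genes tested, 6 fell in spontaneous and 7 in implanted tumours, with log2 changes of -1.46 to -0.52 and of -1.24 to -0.52. Mcm3, a subunit of the Mcm ring, was at 26.4 and 24.5 CPM in spontaneous PBS and 18.7 and 11.9 CPM in spontaneous cGAMP libraries. In implanted tumours it was at 29.1 and 33.3 CPM after PBS and 19.6 and 18.2 CPM after cGAMP. The groups did not overlap in either model, and the log2 changes were -0.73 ± 0.19 (SE, adjusted p = 0.0347) and -0.69 ± 0.19 (adjusted p = 0.0251). Mcm7, its neighbour in the ring, went from 22.1 and 20.2 to 14.0 and 14.8 CPM in spontaneous tumours (log2 change -0.52 ± 0.15, adjusted p = 0.048). In implanted tumours Mcm7 went from 25.7 and 25.9 to 14.8 and 11.6 CPM (-0.93 ± 0.15, adjusted p = 0.00193). The PBS libraries of Mcm7 were close to each other within a model, and every cGAMP library lay well under them. Gins2, a GINS subunit, was the 1 tested helicase gene that passed in neither model, at -0.97 ± 0.36 (adjusted p = 0.114) and -0.52 ± 0.36 (adjusted p = 0.333).

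Origin licensing genes were low and none passed the test. Cdt1, which brings the Mcm ring to origins, was at 4.16 and 4.45 CPM in spontaneous PBS, 3.55 and 3.98 in spontaneous cGAMP, 7.74 and 9.47 in implanted PBS and 4.72 and 5.15 CPM in implanted cGAMP libraries. Its log2 changes were -0.16 ± 0.24 (adjusted p = 0.713) and -0.69 ± 0.24 (adjusted p = 0.0625). Cdc6, the loader that acts with Cdt1, was at 5.40 and 2.47, 1.96 and 1.15, 6.81 and 4.48, and 3.1 and 1.79 CPM in the same order of groups, with log2 changes of -0.90 ± 0.42 and -0.95 ± 0.42 (adjusted p = 0.189 and 0.13). For both genes the cGAMP libraries were the lower ones within a model. The margins were near the spread between replicates, except for Cdt1 in implanted tumours, where the margin was wider. Mcm10, which helps activate the helicase, was below the filter at 0.224 to 3.42 CPM.

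Among the polymerase and primase genes none of 5 tested passed in either model, and Pola2 stood apart. Pola2, the second subunit of polymerase alpha, was at 16.2 and 18.6 CPM in spontaneous PBS and at 22.4 and 18.9 CPM in spontaneous cGAMP libraries. In implanted tumours it was at 26.3 and 20.9 CPM after PBS and at 20.0 and 24.0 CPM after cGAMP. The groups overlapped in implanted tumours, and in spontaneous tumours Pola2 was the 1 gene of the 39 with both cGAMP libraries above both PBS libraries (log2 change 0.24 ± 0.16, adjusted p = 0.371). Prim2, the large primase subunit, was at 10.2 and 10.2 against 6.85 and 6.62 CPM in spontaneous and at 8.33 and 10.9 against 5.54 and 7.09 CPM in implanted tumours. Its libraries did not overlap, with log2 changes of -0.53 ± 0.21 in both models (adjusted p = 0.125 and 0.0902).

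The clamp and its loader divided. Pclaf, which encodes a Pcna-associated factor, fell steeply, from 33.4 and 14.9 to 5.33 and 7.09 CPM in spontaneous tumours and from 51.2 and 63.0 to 6.76 and 9.52 CPM in implanted tumours. The log2 changes were -1.71 ± 0.32 (adjusted p = 0.00849) and -2.68 ± 0.32 (adjusted p = 0.00041). The clamp gene Pcna itself did not pass: it was at 46.5 and 36.8 against 31.0 and 32.5 CPM in spontaneous tumours (-0.37 ± 0.13, adjusted p = 0.0909). In implanted tumours Pcna was at 41.0 and 47.5 CPM after PBS and at 44.8 and 43.4 CPM after cGAMP, and the cGAMP values lay between the PBS values. Rfc2, a subunit of the clamp loader, was nearly level, at 35.1 and 32.6, 33.4 and 34.9, 40.5 and 35.9, and 35.8 and 35.2 CPM in the groups in the order used for Cdc6. Its log2 changes were 0.01 ± 0.11 and -0.10 ± 0.11 (adjusted p = 0.954 and 0.535). Of the 6 genes 1 fell in spontaneous and 2 in implanted tumours, the second being the loader gene Rfc4. Its log2 changes were -0.79 ± 0.25 in spontaneous and -0.87 ± 0.25 in implanted tumours (adjusted p = 0.0694 and 0.0324). The implanted call was kept in 8 of 16 alternative settings. No other loader gene passed in either model. Annotated processed pseudogenes of Pcna (2) and of Tyms (1) could share reads with their parent genes, so the levels of those genes are less certain.

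Strand maturation genes fell in all but 1 case. Lig1, the ligase that seals Okazaki fragments, went from 25.4 and 22.7 to 12.8 and 13.6 CPM in spontaneous and from 27.4 and 30.4 to 19.2 and 17.3 CPM in implanted tumours (log2 changes -0.82 ± 0.13 and -0.63 ± 0.13, adjusted p = 0.00371 and 0.00704). Rpa2, a subunit of the protein that coats single-stranded DNA, was at 15.5 and 13.1 against 8.53 and 10.4 CPM in spontaneous tumours (-0.55 ± 0.17, adjusted p = 0.0599). In implanted tumours Rpa2 fell from 16.9 and 17.4 to 8.76 and 9.25 CPM (-0.86 ± 0.17, adjusted p = 0.00525). No cGAMP library of either gene reached a PBS library of its model.

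Nucleotide supply held the steepest single falls, Rrm2 in spontaneous and Tk1 in implanted tumours. Both genes reached 5 CPM in no cGAMP library and entered the test through the PBS libraries. All 5 genes of the group fell in implanted tumours against 3 in spontaneous tumours. Its median log2 changes, -0.85 in spontaneous and -1.32 in implanted tumours, were not the lowest: those of G1/S control were -1.25 and -1.80. Rrm2, the cell cycle-regulated subunit of ribonucleotide reductase, was at 14.8 and 12.1 CPM in spontaneous PBS and at 1.03 and 2.70 CPM in spontaneous cGAMP libraries. In implanted tumours it was at 18.0 and 23.2 CPM after PBS and at 2.95 and 1.56 CPM after cGAMP. The means were 7.19-fold and 9.13-fold lower, with log2 changes of -2.39 ± 0.34 and -2.75 ± 0.34 (adjusted p = 0.0018 and 0.000469). Tk1, the S-phase thymidine kinase, went from 12.6 and 4.21 to 1.45 and 1.77 CPM in spontaneous tumours (-1.69 ± 0.40, adjusted p = 0.0249). In implanted tumours Tk1 went from 21.4 and 25.6 to 1.52 and 1.46 CPM, 15.7-fold lower in the mean (-3.29 ± 0.40, adjusted p = 0.000449). The 4 cGAMP libraries of Tk1 were alike and the PBS libraries were not.

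Rrm1, the large and longer-lived reductase subunit, was at 27.1 and 20.2 against 16.8 and 16.9 CPM in spontaneous tumours (-0.45 ± 0.15, adjusted p = 0.0853) and fell from 33.3 and 29.8 to 11.7 and 12.4 CPM in implanted tumours (-1.32 ± 0.15, adjusted p = 0.000371). Dut, which removes dUTP from the nucleotide pool, fell in both, from 45.5 and 40.3 to 21.5 and 25.2 CPM and from 52.5 and 56.7 to 26.3 and 17.8 CPM (-0.85 ± 0.17 and -1.29 ± 0.17, adjusted p = 0.0122 and 0.000748). Tyms, the thymidylate synthase, was at 68.0 and 54.3 against 59.0 and 44.4 CPM in spontaneous tumours, where the groups overlapped (-0.24 ± 0.15, adjusted p = 0.299). In implanted tumours Tyms fell from 77.9 and 80.6 to 51.7 and 50.1 CPM (-0.63 ± 0.15, adjusted p = 0.0121).

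**Figure D3:**
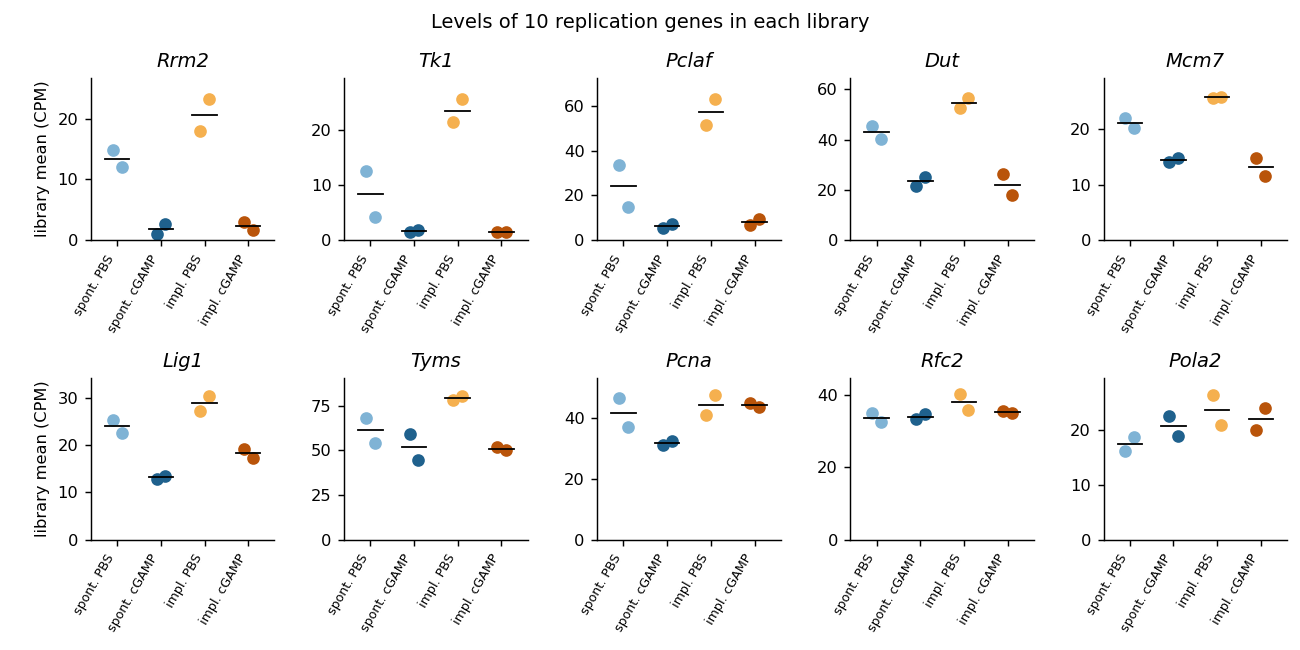
Mean level in Pecam1 > 0 cells (CPM, axes from 0) of 10 replication genes in each library, with 1 point a library and a line at the mean of each group of 2. Rrm2, Tk1 and Pclaf drop to between 1.03 and 9.52 CPM in all cGAMP libraries, whereas Rfc2 and Pola2 stay between 16.2 and 40.5 CPM in all 8.

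Of the chromatin and histone genes, Uhrf1, which reads hemimethylated DNA behind the fork, fell from 10.7 and 10.6 to 3.1 and 1.64 CPM in spontaneous tumours (-1.82 ± 0.30, adjusted p = 0.00438). In implanted tumours Uhrf1 fell from 16.4 and 13.4 to 6.85 and 3.82 CPM (-1.36 ± 0.30, adjusted p = 0.00942). Slbp, which binds histone mRNA, had the smallest change of the 4: it was at 52.1 and 53.1 against 41.9 and 37.5 CPM in spontaneous tumours (-0.40 ± 0.11, adjusted p = 0.0499), and 48.8 and 56.7 against 41.4 and 46.9 CPM in implanted tumours (-0.25 ± 0.11, adjusted p = 0.143). Both tested G1/S control genes, E2f1 and Ccne2, passed in implanted tumours and neither did in spontaneous tumours. Both reached 5 CPM in no cGAMP library and entered the test through the PBS libraries, where they were higher. Uhrf1 would not have met the filter on the cGAMP libraries alone either. E2f1, a transcription factor of this gene programme, was at 5.86 and 4.95 against 1.93 and 2.40 CPM in spontaneous tumours (-1.02 ± 0.33, adjusted p = 0.072). In implanted tumours E2f1 fell from 7.47 and 7.79 to 2.95 and 1.37 CPM (-1.50 ± 0.33, adjusted p = 0.0093). Ccne2, the gene of cyclin E2, was at 5.12 and 2.38 against 0.534 and 0.705 CPM (-1.49 ± 0.48, adjusted p = 0.0732), and fell from 6.96 and 3.82 to 0.279 and 0.638 CPM in implanted tumours (-2.10 ± 0.48, adjusted p = 0.0116).

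The responses of the 2 models were compared directly. The difference of the log2 changes, implanted minus spontaneous, passed for 0 of the 35 genes (limma), where 0.662% of all genes tested passed in either direction. At an unadjusted p under 0.05 it passed for 2 of the 35, against 1400 of all 10424 genes tested, so the 2 do not exceed the background. Those were Tk1 at -1.60 ± 0.56 (adjusted p = 0.275) and Rrm1 at -0.86 ± 0.22 (adjusted p = 0.126). The larger fall was in implanted tumours for 21 of the 35, and the difference was negative for 5452 of all 10424 genes. A call in 1 model alone is therefore not shown to be a difference between the models.

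After PBS, 3 of the 35 genes were higher in implanted than in spontaneous tumours, against 3.39% of all genes tested. The difference was positive for 34 of the 35, against 4213 of all 10424 genes. Tk1 was higher by 1.54 ± 0.40 on the log2 scale (adjusted p = 0.0478) and Pclaf by 1.30 ± 0.32 (adjusted p = 0.0392), from the levels given above. Mcm5, another ring subunit, was at 26.7 and 22.3 CPM in implanted PBS and 15.6 and 12.3 CPM in spontaneous PBS libraries (0.77 ± 0.20, adjusted p = 0.0462). None of these 3 calls held in cells with Cdh5 and no other marker. After cGAMP it was at 10.9 and 9.65 and at 9.42 and 6.71 CPM, and had fallen in both models. All 3 calls are near the threshold: 0 genes were called without either implanted PBS library, without spontaneous PBS replicate 2 or without spontaneous cGAMP replicate 1, and 1 without spontaneous cGAMP replicate 2. After cGAMP 1 of the 35 was higher in implanted tumours, against 5.23% of all genes: Pcna, by 0.46 ± 0.13 (adjusted p = 0.0444), a call that 5 of the 8 omissions of a library ended (both implanted PBS, implanted cGAMP replicate 1 and both spontaneous cGAMP libraries) and 3 genes were called without implanted cGAMP replicate 2. These comparisons use the same libraries as the responses above.

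The promoters of these genes are known for binding sites of E2F factors. RefSeq start sites (GRCm38.p6) gave 37 windows for 32 of the 39 genes, and the 250 bases before each start were searched on both strands for TTCCCGC, then for the close relative TTGGCGC, for the word TTCGCGC and for the word TTGCCGC, core words of E2F sites that can overlap each other across strands. At least 1 of them stood in 14 of the 32 genes (43.8%), against 7.89% of all 32851 windows. The word CCAAT, bound by NF-Y, stood in 18 of 32 (56.3%) against 33.8%, and TTTGAA, the core of the CHR element of mitotic genes, in 3 of 32 (9.38%) against 16.0%. These matches are letters in a window and not bound sites. The sequences of 6 windows are given 5′ to 3′ on the gene's strand, with the E2F-type words in capitals: Mcm6 and Mcm5, ring genes that fell in both models, Rrm2 and Pclaf as steep falls, and Pola1 and Pola2, which passed in neither model, so that both kinds of gene are shown with and without a word. The Mcm6 window is chr1:128359706-128359955 (minus strand), that of Mcm5 chr8:75109259-75109508 (plus), that of Rrm2 chr12:24708004-24708240 (plus), that of Pclaf chr9:65890073-65890236 (plus), that of Pola1 chrX:93632156-93632405 (minus) and that of Pola2 chr19:5964207-5964456 (minus). Those of Rrm2 and Pclaf stop where an annotated exon begins.
Mcm6: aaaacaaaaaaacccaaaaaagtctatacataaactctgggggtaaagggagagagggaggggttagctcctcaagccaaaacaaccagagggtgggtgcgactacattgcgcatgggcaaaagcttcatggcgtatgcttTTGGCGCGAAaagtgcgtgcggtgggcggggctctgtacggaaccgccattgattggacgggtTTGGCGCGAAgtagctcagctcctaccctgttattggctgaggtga
Mcm5: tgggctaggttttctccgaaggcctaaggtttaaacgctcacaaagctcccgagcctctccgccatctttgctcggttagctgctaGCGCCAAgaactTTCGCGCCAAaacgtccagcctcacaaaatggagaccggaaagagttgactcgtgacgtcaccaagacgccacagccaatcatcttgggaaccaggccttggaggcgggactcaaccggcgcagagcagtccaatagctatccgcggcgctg
Rrm2: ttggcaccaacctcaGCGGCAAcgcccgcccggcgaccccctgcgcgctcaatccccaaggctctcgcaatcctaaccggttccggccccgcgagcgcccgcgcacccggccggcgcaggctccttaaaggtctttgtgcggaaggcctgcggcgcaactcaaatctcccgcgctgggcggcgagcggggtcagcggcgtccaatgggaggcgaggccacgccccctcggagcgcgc
Pclaf: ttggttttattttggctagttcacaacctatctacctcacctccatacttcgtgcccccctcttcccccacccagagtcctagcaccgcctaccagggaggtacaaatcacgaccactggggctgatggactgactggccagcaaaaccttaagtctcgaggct
Pola1: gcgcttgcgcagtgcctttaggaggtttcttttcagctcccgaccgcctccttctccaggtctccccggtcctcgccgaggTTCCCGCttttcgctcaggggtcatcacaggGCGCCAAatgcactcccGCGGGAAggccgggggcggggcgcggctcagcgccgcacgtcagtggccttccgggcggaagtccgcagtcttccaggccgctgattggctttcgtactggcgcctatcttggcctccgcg
Pola2: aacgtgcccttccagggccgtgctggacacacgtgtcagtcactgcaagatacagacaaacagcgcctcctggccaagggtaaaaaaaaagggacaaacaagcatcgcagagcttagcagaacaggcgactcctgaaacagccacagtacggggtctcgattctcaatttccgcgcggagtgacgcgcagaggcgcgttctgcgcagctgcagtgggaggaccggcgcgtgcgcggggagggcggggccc
Mcm6 holds 4 of the words, in pairs that overlap on opposite strands, Mcm5 and Pola1 hold 3, Rrm2 holds 1, and Pclaf and Pola2 none. A word stood in 9 of the 20 genes with a window that fell in at least 1 model and in 5 of the 10 tested genes that fell in neither, and Tk1, Dut and Mcm3 were among the falling genes without one. Mcm6 fell from 16.5 and 13.5 to 6.99 and 6.55 CPM in spontaneous tumours and from 21.5 and 22.4 to 14.2 and 7.47 CPM in implanted tumours (-1.04 ± 0.25 and -1.02 ± 0.25, adjusted p = 0.0268 and 0.0156).

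Within a library, mean levels of the replication genes were higher in cells with the mitotic genes, although most of their summed level lay in the remaining cells. In the 6 libraries with at least 10 cells of both classes, cells with 3 or more mitotic genes were compared with the remaining cells (limma with the library as a block, Benjamini-Hochberg over 10948 genes without the 6 mitotic ones). Of the 39 genes 38 were higher in the cells with mitotic genes, where 9.5% of all genes tested were, with a median log2 difference of 2.47 against -0.12 over all genes. The exception was Pola2 (0.28 ± 0.23, adjusted p = 0.421). Only 28 of the 39 would have met the filter on the cells without mitotic genes alone, and 27 of these 28 were higher. Because cells with the mitotic genes are deeper, the comparison was also made in cells thinned to 2000 UMIs, where 19 of the 39 passed. Only spontaneous PBS replicate 1 and both implanted PBS libraries then held at least 10 cells of the class (27, 39 and 67). Thinning thus also changed which libraries entered, and the effect of depth alone was not tested.

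Pclaf differed most, with 459 and 282 CPM in cells with the mitotic genes against 8.20 and 6.21 CPM in the remaining cells of the spontaneous PBS libraries. In implanted PBS libraries Pclaf was at 416 and 482 against 12.5 and 10.0 CPM (log2 difference over the 6 libraries 4.88 ± 0.24, adjusted p = 1.22e-07). Tk1 was at 175 and 82.4 against 2.97 and 1.66 CPM, and at 169 and 198 against 5.80 and 3.80 CPM (4.69 ± 0.28, adjusted p = 4.02e-07). Tk1 would not have met the filter on the cells without the mitotic genes alone, and entered through the class where it was high. Rrm2 followed, at 186 and 144 against 4.59 and 7.74 CPM and at 137 and 187 against 5.35 and 2.49 CPM (3.81 ± 0.48, adjusted p = 0.000177). For these genes the classes lay far apart in every PBS library. At the other end, Slbp (1.03 ± 0.25), Rfc2 (1.05 ± 0.15) and Rfc3 (1.07 ± 0.20), which were the lowest of the 38 and are named for that, were found at sizeable levels in cells without mitotic genes too.

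Levels also ordered by the number of mitotic genes in a cell. Averaged over the 4 PBS libraries, the summed level of the 39 genes was 414 CPM in cells with 0 mitotic genes, 609.8 with 1, 1243 with 2 and 2420.5 with 3. It was 3561 with 4, 3839 with 5 and 3376 with 6, so the sum no longer climbed among cells with the most mitotic genes. A cell with 1 or 2 mitotic genes, counted here among the remaining cells, already held more than a cell with none. Pclaf went from 4.23 ± 2.28 CPM (SD, n = 4) with 0 genes to 483 ± 89.6 with 6, and Rrm2 from 2.83 ± 1.89 to 168 ± 40.0 CPM. Pola2 was at 19.7 ± 3.30 CPM with 0 genes and 29.9 ± 5.65 with 6. In spontaneous PBS replicate 2 the bins of 3 to 6 mitotic genes held 3 to 6 cells each, so those means are loose. These values are a description, since cells of 1 library are not replicates.

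**Figure D4:**
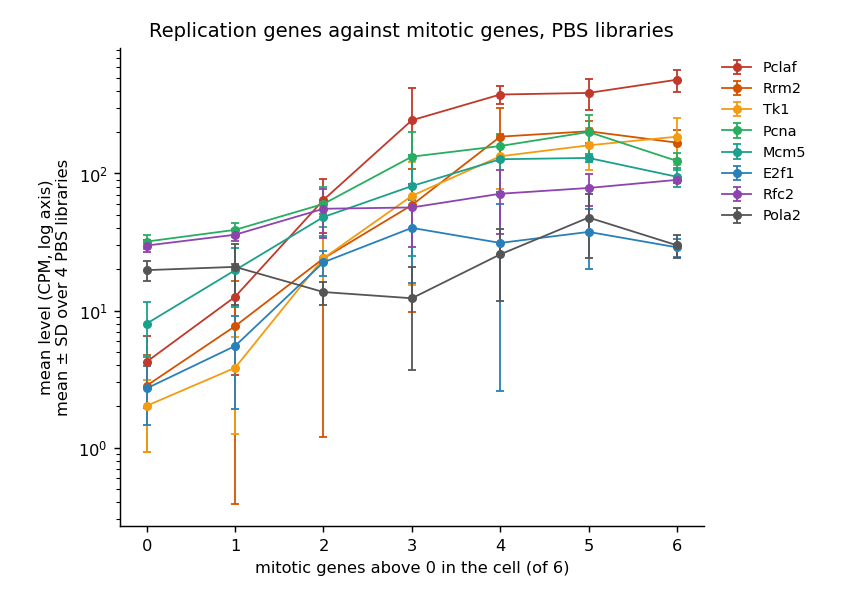
Mean level (CPM, log axis) of 8 replication genes in Pecam1 > 0 cells of the 4 PBS libraries, by how many of the 6 mitotic genes a cell carried, with bars of ± SD over libraries. Pclaf climbs from 4.23 CPM at 0 genes to 483 CPM at 6, and Pola2 only from 19.7 to 29.9 CPM.

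Replication genes were also counted per cell at equal depth. Among cells thinned to 2000 UMIs, those with a UMI of 5 or more of the 39 genes made up 5.79% and 3.25% in spontaneous PBS and 0.772% and 0.780% in spontaneous cGAMP libraries. In implanted tumours they made up 6.70% and 8.76% after PBS and 1.58% and 1.24% after cGAMP. Every cGAMP library lay below every PBS library, and the Wilson 95% intervals of the groups did not meet in either model. In spontaneous tumours they were 4.42% to 7.56% and 2.06% to 5.08% against 0.330% to 1.79% and 0.334% to 1.81%. In implanted tumours they were 5.25% to 8.51% and 7.18% to 10.7% against 0.960% to 2.59% and 0.601% to 2.54%. Among cells without 3 mitotic genes the shares were 2.35% and 1.87%, 0.314% and 0.316%, 1.71% and 2.52%, and 0.969% and 1.07% in the 4 groups in turn. Intervals cover counting error only.

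In cells without 3 mitotic genes the falls after cGAMP were smaller and few passed. The summed level was 483 and 477 CPM in spontaneous PBS and 393 and 372 CPM in spontaneous cGAMP libraries. In implanted tumours it was 524 and 519 CPM after PBS and 464 and 433 CPM after cGAMP. Of the 28 genes tested there, 4 fell in spontaneous tumours, where 6.1% of all 10337 genes tested fell, with a median log2 change of -0.41 against -0.10 over all genes. They were Rrm2 (-1.71 ± 0.46, adjusted p = 0.042), Uhrf1 (-1.39 ± 0.38, adjusted p = 0.0452), Dut (-0.72 ± 0.16, adjusted p = 0.0218) and Mcm4 (-0.62 ± 0.17, adjusted p = 0.0474). Rrm2 was at 4.59 and 7.74 CPM after PBS and 0.931 and 1.36 CPM after cGAMP in these cells. Rrm2 and Uhrf1 would not have met the filter on the cGAMP libraries alone. Without spontaneous PBS replicate 2 or spontaneous cGAMP replicate 2 the count was 0, without spontaneous PBS or cGAMP replicate 1 or implanted PBS replicate 1 it was 1, and without implanted PBS replicate 2 it was 2.

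In implanted tumours 4 of the 28 fell in these cells (14.3%, against 14.2% of all genes tested). Just 1 rose (3.57%, against 8.34%), and the median was -0.22 against -0.09. Neither count stood out from the share over all genes, and the 5 genes are named as single calls. Dut fell from 40.5 and 37.8 to 25.0 and 17.3 CPM (-0.88 ± 0.16, adjusted p = 0.00467), and Rrm1 from 21.9 and 17.4 to 11.3 and 12.2 CPM (-0.69 ± 0.16, adjusted p = 0.0136). Mcm5 (-0.66 ± 0.21, adjusted p = 0.0481) and Mcm7 (-0.50 ± 0.15, adjusted p = 0.0399) were the other two. Pcna was the gene that rose, from 31.8 and 35.4 to 44.8 and 43.1 CPM (0.38 ± 0.12, adjusted p = 0.048), with no overlap of the libraries. Its call was kept in 5 of 17 alternative settings. Counting both directions, these 5 calls became 2 in cells with Cdh5 and no other marker, 1 without implanted PBS replicate 1, 2 without implanted PBS replicate 2 and 3 without implanted cGAMP replicate 2 or any 1 spontaneous library.

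In cells with 3 or more mitotic genes, which were few after cGAMP, the summed level of the replication genes was lower as well. It was 3871 and 3129 CPM in spontaneous PBS and 1395 and 2132 CPM in spontaneous cGAMP libraries. In implanted tumours it was 3296 and 3385 CPM after PBS and 1506 and 1540.0 CPM after cGAMP. No cGAMP library reached a PBS library in this sum. Single genes did not all follow it: Rfc2 was at 52.8 and 140 CPM in the spontaneous cGAMP libraries against 89.6 and 62.1 after PBS, and Pola2 at 17.6 and 60.2 against 30.0 and 34.9 CPM in implanted tumours. The cells also differed in how many mitotic genes they carried. Those with 5 or 6 were 68.5%, 63.2%, 63.5% and 71.5% of them in the PBS libraries and 33.3%, 25.0%, 35.0% and 40.0% in the cGAMP libraries. Their median depth differed too, at 19009.5, 25045, 20849.5 and 18540 UMIs in the PBS libraries and 31338.5, 16966, 28323 and 36853 in the cGAMP libraries. The cells compared are thus not alike in these respects. The change after cGAMP in this class was not tested in thinned cells.

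A fit of tumour model plus treatment over all 8 libraries, added after the data had been seen, tested this class. Of the 39 genes 12 fell after cGAMP (limma, Benjamini-Hochberg over 10722 genes), where 2.37% of all genes tested fell. All 39 had a negative change over both models, whether or not they passed, against 7089 of all 10722 genes. Of the 12, Ccne1 and Pole reached 5 CPM through the PBS libraries only, and 10 of the other 37 fell. The median log2 change was -1.05 against -0.24 over all genes. Another scaling of the libraries moved that all-gene median by 0.12. The count rests on single libraries and on 5 to 20 cells in each cGAMP library: it was 3 without spontaneous PBS replicate 1 or either implanted PBS library and 5 without spontaneous PBS replicate 2. It was 4 when 4 mitotic genes were asked of a cell and 35 when 2 were.

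Ccne1, the gene of cyclin E1, was too low to be tested in library means. In cells with the mitotic genes it had 59 UMIs in 24 of 73 spontaneous PBS cells (33.3 CPM) and 130 UMIs in 58 of 219 implanted PBS cells (26.8 CPM). After cGAMP it had 0 UMIs in 20 spontaneous and 25 implanted cells. With 3 counts over the pooled UMIs of the group as a bound, a count of 0 corresponds to 5.32 and 3.69 CPM. These lay 6.27-fold and 7.25-fold below the PBS levels, which were taken without their error. The exact Poisson 95% upper limits were wider, at 6.54 and 4.54 CPM. Such bounds cover counting error in pooled cells and not the spread between libraries. Pole, the catalytic subunit of polymerase epsilon, had 43 and 125 UMIs after PBS (24.3 and 25.7 CPM) and 1 and 0 UMIs after cGAMP. In implanted tumours the bound of 3 counts lay 6.98-fold below its PBS level. Because both genes entered the fit through the PBS libraries only, their counts stand here without its p-values. Pola1, the catalytic subunit of polymerase alpha, had 93 UMIs (52.5 CPM, exact Poisson 95% interval 42.4 to 64.3) against 8 (14.2 CPM, 6.12 to 27.9) in spontaneous tumours. In implanted tumours Pola1 had 233 UMIs (48.0 CPM, 42.0 to 54.6) against 3 (3.69 CPM, 0.761 to 10.8), with a log2 change of -3.05 ± 0.70 over both models (adjusted p = 0.0318).

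Of the other genes that fell in this class, Tk1 changed by -1.70 ± 0.42 (adjusted p = 0.0442) and Pclaf by -1.67 ± 0.34 (adjusted p = 0.0157). Mcm4, Fen1, Rrm1, Uhrf1, Lig1, Pcna and Tyms fell by between 1.03 and 1.52 on the log2 scale. Pcna thus fell in cells with the mitotic genes, from 170 and 163 to 64.5 and 91.1 CPM in spontaneous and from 127 and 144 to 46.7 and 82.0 CPM in implanted tumours (-1.11 ± 0.23, adjusted p = 0.0175). Its rise in the remaining cells of implanted tumours, given above, was a call kept in 5 of 17 alternative settings. Rrm2 did not pass here (-2.63 ± 0.69, adjusted p = 0.0556), with 6.46 and 117 CPM in the spontaneous and 10.7 and 45.0 CPM in the implanted cGAMP libraries against 137 to 187 CPM after PBS.

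**Figure D5:**
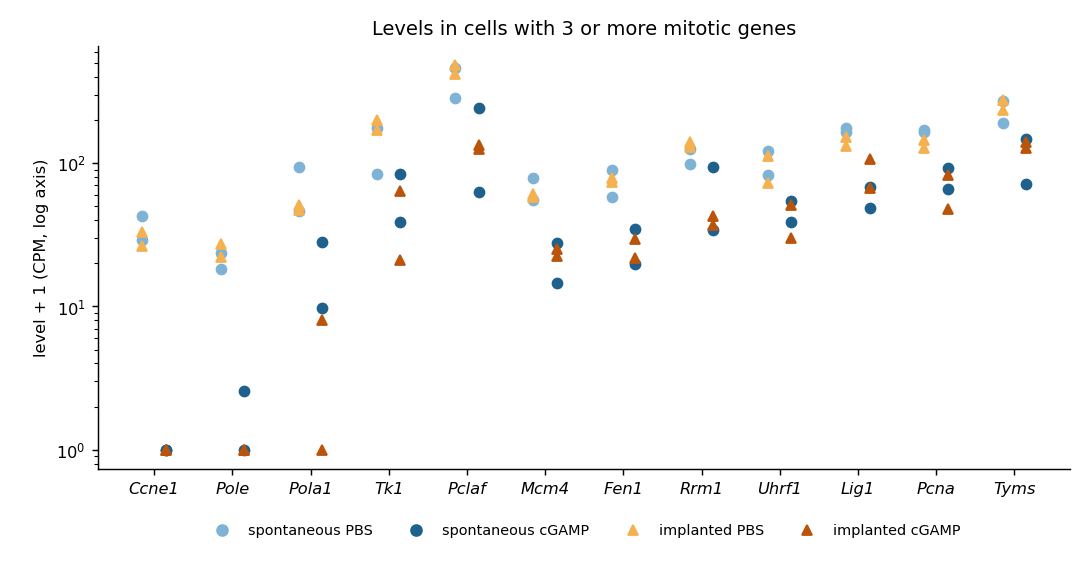
Level + 1 (CPM, log axis) in cells with 3 or more mitotic genes of the 12 replication genes that fell after cGAMP in that class, with 1 point a library and PBS drawn to the left of cGAMP. Ccne1 is at 0 CPM in all 4 cGAMP libraries, which hold 5 to 20 such cells each, and the other genes are lower after cGAMP with little or no overlap.

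Shares and levels were then set side by side. With the levels that each class had after PBS and the shares of the classes after cGAMP, the summed level of the 39 genes would have been 525 CPM in spontaneous tumours. Put together from group means of shares and levels, the sum there was 612 CPM after PBS and 403 after cGAMP. The measured library sums averaged 617 and 402 CPM. With the levels after cGAMP and the shares after PBS it would have been 443 CPM. In implanted tumours, from 815 CPM after PBS and 460.3 after cGAMP, the same values were 552 CPM with the shares alone changed and 561 CPM with the levels alone changed. All 4 values lie between the PBS and the cGAMP level. These sums use group means of shares and levels and carry no test.

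Of 67 other replication and S-phase genes 51 were tested. In spontaneous tumours 8 fell and 3 rose (15.7% and 5.88%, against 7.59% and 5.09% of all genes tested), and in implanted tumours 19 fell and 3 rose (37.3% and 5.88%, against 16.4% and 8.6%). Hells, a chromatin remodeller of S phase, fell from 18.4 and 16.0 to 4.85 and 9.62 CPM and from 22.9 and 21.7 to 10.6 and 8.62 CPM (-1.20 ± 0.25 and -1.14 ± 0.25, adjusted p = 0.0158 and 0.0102). Dnmt1, the maintenance DNA methyltransferase that Uhrf1 recruits, fell by 0.60 ± 0.11 in spontaneous tumours (adjusted p = 0.00738). Gmnn, the geminin gene, whose protein restrains Cdt1, was at -0.65 ± 0.19 in spontaneous tumours (adjusted p = 0.0552) and fell by 1.43 ± 0.19 in implanted tumours (adjusted p = 0.00079). Topbp1, which takes part in origin firing, fell by 0.84 ± 0.14 in implanted tumours (adjusted p = 0.00261).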

How the data were processed

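The authors mapped the reads to mm10 (Cell Ranger 3.0.0, Seurat 3.1.1), kept cells with 500 genes or more and at most 10% mitochondrial UMIs, and gave each library a deposited table in natural log units, ln(1 + UMIs × 10000 / total UMIs of the cell). How the deposited cells were chosen is not settled. Dividing the linear values of a cell by the smallest gave whole numbers for 100% of values within 0.01, which were taken as UMIs. No column was left unused (0).

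Linear values, scaled to CPM, were averaged over the Pecam1 > 0 cells of each library. Log2(CPM + 1) was tested with limma 3.58.1 (R 4.3.3, eBayes with trend) in 1 fit of 8 libraries, for genes that reached 5 CPM in 2 or more libraries, at a Benjamini-Hochberg adjusted p of 0.05. A log2 fold change on this scale understates changes of low genes. Levels were not compared between genes, since 3′ counting depends on the transcript end. The fit was tested on simulated data for the implanted response: of 200 changed genes among 10424 it called 82.5% at a log2 change of 1 (11 false calls) and 97.0% at 2 (12 false). Depth was 7451522 to 16338968 UMIs in the Pecam1 cells of a library.

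Cells were divided at 3 of the 6 mitotic genes, and classes were fitted in the 6 libraries with at least 10 cells in each. Spontaneous and implanted cGAMP replicate 2, with 8 and 5 such cells, were left out there. Values in every library were given for the 2 genes of each role with the highest mean and for the 3 called genes with the largest change in each direction. Genes outside this rule were named after their values had been seen, because 5 or fewer made up a count or a sequence was shown. Of the other replication genes, those with a mean of at least 10 CPM were eligible. The members and lists were chosen with earlier results of these data known. Replicate numbers were taken from the titles. The correlation of replicate differences between groups was -0.22 to 0.13, so equal numbers were not taken to pair libraries. Promoter windows came from RefSeq (GRCm38.p6). Genes of the 39 without a window were Prim2, Rfc2, Pole, Ccne2, Gins1, Gins2 and Mcm4.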

Additional observations from a re-analysis of the deposited data

How the results depend on the processing

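The direction of every called gene was kept under each alternative run, and 2 of the 14 calls in spontaneous tumours, 6 of the 21 in implanted tumours and 18 of the 38 between cell classes held under all of them. The spontaneous count of 14 was 31 with UMIs summed per library, 6 in thinned cells, 7 in cells with Cdh5 and no marker of another type, 9 under median-of-ratios scaling, 5 without the filter on low values and 5 to 19 with a library left out. The implanted count of 21 was 10 in thinned cells and 10 to 22 with a library left out. The 3 genes higher in implanted tumours after PBS became 1 with summed UMIs, 0 in thinned cells, in cells with Cdh5 and no other marker and without the filter, and 0 to 3 with a library left out. The 1 gene after cGAMP became 0 in thinned cells and without the filter, 2 in cells with Cdh5 and no other marker and under median-of-ratios scaling, and 0 to 3 with a library left out. In cells without the mitotic genes the spontaneous count of 4 was 0 with the class set at 2 genes or no filter, 9 with summed UMIs, 1 under median-of-ratios scaling, 2 with a pseudocount of 5 CPM and 0 to 5 with a library left out. The implanted count of 5 was 2 and 9 with the class set at 2 and 4 genes, 9 with summed UMIs, 2 in cells with Cdh5 and no other marker, 3 under median-of-ratios scaling and 1 to 4 with a library left out. Between the classes 19 of 38 passed in thinned cells, where only spontaneous PBS replicate 1 and both implanted PBS libraries entered. With a library left out 35 to 38 passed. The count of 12 in cells with the mitotic genes was 35 and 4 with the class set at 2 and 4 genes, 20 in libraries with 10 or more such cells and 3 to 17 with a library left out. These last settings, and the class fit over all 8 libraries (35), were chosen after seeing the data. The count of 0 for the difference of responses was 0 under every alternative. The share of cells with the mitotic genes was lower after cGAMP under each alternative that gave a value (mean log2 difference -3.28 to -1.53). Cells with Cdh5 and no other marker gave none, since 1 library had 0 cells of the class. Why these counts move was not tested.

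With the replicate number as a block the counts were 11 (spontaneous), 21 (implanted), 0 (difference), 1 (after PBS), 1 (after cGAMP), 1 and 3 (cells without the mitotic genes) and 15 (cells with them), and the share difference stayed at -2.43 (exact permutation p = 0.125, the smallest of 16 arrangements). The numbers were not shown to pair the libraries. With the numbers of the spontaneous PBS libraries crossed the counts were 13 (spontaneous) and 2 (after PBS). At this depth Gins1, Mcm10, Pole and Ccne1 were too low to be tested in library means, and comparisons in cells with the mitotic genes rest on 45 such cells after cGAMP.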

Other observations

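Some genes of nucleotide and fork metabolism rose after cGAMP, where 14 and 21 of the 35 tested replication genes fell and none rose. They were few: 3 of the 51 other replication genes tested rose in each model (5.88%). Over all genes tested 5.09% rose in spontaneous and 8.6% in implanted tumours, so the genes below are single cases. Samhd1, which breaks down dNTPs and is also an interferon-induced gene, was at 57.1 and 55.9 CPM in spontaneous PBS and 218 and 221 CPM in spontaneous cGAMP libraries, and at 139 and 93.2 against 333 and 328 CPM in implanted tumours. The log2 changes were 1.94 ± 0.15 and 1.53 ± 0.15 (limma, Benjamini-Hochberg adjusted p = 2.69e-05 and 0.000132), and after PBS alone Samhd1 was already higher in implanted tumours (1.0 ± 0.15, adjusted p = 0.00452). Timeless, a component of the fork protection complex, rose from 33.3 and 43.6 to 89.3 and 76.0 CPM and from 39.1 and 34.3 to 92.9 and 117 CPM (1.09 ± 0.16 and 1.48 ± 0.16, adjusted p = 0.00208 and 0.000213). The libraries of either gene did not overlap within a model. Both also rose in cells with the mitotic genes, by 2.08 ± 0.23 (Samhd1, adjusted p = 0.000338) and 1.27 ± 0.28 (Timeless, adjusted p = 0.0246), the class in which 12 of the 39 replication genes fell. Unlike those, Timeless was not shown to differ between cells with and without the mitotic genes (0.22 ± 0.14, adjusted p = 0.278). Samhd1 was called lower in cells with the mitotic genes, as the only 1 of the 67 other replication genes (1.49%, against 11.9% of all genes tested).

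Genes of dNTP supply outside the list went different ways. Dck, the salvage kinase of deoxycytidine, rose in implanted tumours from 13.4 and 12.4 to 25.6 and 23.9 CPM (0.89 ± 0.16, adjusted p = 0.00344) and was at 10.2 and 8.92 against 12.2 and 15.1 CPM in spontaneous tumours (0.47 ± 0.16, adjusted p = 0.0812). Rrm2b, the reductase subunit of non-dividing cells, fell in spontaneous tumours from 29.9 and 23.3 to 16.2 and 17.8 CPM (-0.60 ± 0.15, adjusted p = 0.0308) and was at -0.35 ± 0.15 in implanted tumours (adjusted p = 0.118). Pold4, the small subunit of polymerase delta, rose in spontaneous tumours by 0.33 ± 0.09 (adjusted p = 0.0401) and was at -0.21 ± 0.09 in implanted tumours (adjusted p = 0.116). The difference of these responses did not pass for any of the 3 (adjusted p = 0.104 to 0.66). After cGAMP, Rad51ap1 (-0.90 ± 0.16, adjusted p = 0.00956), Rpa3 (-0.49 ± 0.11, adjusted p = 0.0236) and Pold4 (-0.42 ± 0.09, adjusted p = 0.016) were lower in implanted than in spontaneous tumours.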
